A study of Mus musculus with 8 samples.

Results

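The metalloproteinases that remodel the extracellular matrix and release proteins from cell surfaces, with their inhibitors, were examined in brain endothelial cells (ECs) that express MAP2K1 (p.K57N). The set comprised every gene of the deposited normalized table whose symbol begins with Mmp, Adam, Adamts, Adamtsl or Timp followed by a digit, which gave 58 of the 16889 genes of that table. These are 17 matrix metalloproteinases (MMPs), 15 ADAMs, 17 ADAMTS proteases, 5 ADAMTS-like genes and 4 tissue inhibitors of metalloproteinases (TIMPs). Another 26 genes with such a symbol are annotated but are not in the table, and none of them had more than 50 counts over the 8 libraries.

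The mutant group was 4 pups of genotype R26GT-Map2k1-GFP/+;Tg-Cdh5CreER+/-, in which a *Map2k1* K57N cDNA under a CAG promoter is switched on by CreER in cells that use the *Cdh5* promoter. The other group was 4 wild-type pups. Tamoxifen was given to the litters at P1 and brain ECs were isolated at P9 from collagenase-digested whole brain with beads against CD31, on a C57BL/6J background in both groups. Only part of the ECs carried the recombined allele, so each mutant library mixes mutant and non-recombined ECs, and no group expressed the wild-type protein from the same locus. One list of the study describes its control as a Cre carrier, while the sample labels call all 4 controls wild type. The question was which genes of this set differ in RNA abundance between mutant and wild-type ECs.

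MMPs cut collagens, gelatin and other matrix proteins, and the membrane-type members act at the surface of the cell that makes them. ADAMs release growth factors, receptors and adhesion molecules from the cell surface, ADAMTS enzymes are secreted and cut proteoglycans, procollagens or von Willebrand factor, and ADAMTS-like proteins share their matrix-binding part but lack the protease. TIMPs bind and block these enzymes, and in brain vessels the balance between both is known to bear on the basement membrane and the blood-brain barrier.

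Libraries held 24833373 to 34196955 counts on genes in the mutant and 28146348 to 32208421 in the wild-type group. *Map2k1*, whose cDNA is the transgene, had 12660 to 18687 normalized counts in the mutant and 1502 to 1758 in the wild-type libraries, a difference of 3.18 on the log2 scale (standard error 0.13, adjusted p = 2.84e-07, edgeR), so each library matched its label. All 10 endothelial markers were detected in every group, with a summed 362629 to 439353 normalized counts in mutant and 341184 to 413553 in wild-type libraries. Normalized counts here are counts scaled by edgeR's TMM factors to the mean library size. Markers of other cells were present too. The 8 oligodendrocyte lineage markers summed to 1318 to 2355 in mutant and 3449 to 9489 in wild-type libraries, the 8 neuron markers to 587 to 906 and 1056 to 3274, and the 5 red blood cell markers to 2567 to 8439 and 15699 to 27250, each without overlap. All 8 oligodendrocyte, 6 of 8 neuron and all 5 red blood cell markers were differentially expressed and lower in mutant libraries. The neuron marker *Rbfox3* ran the other way without passing (log2 fold change 1.19, adjusted p = 0.0514, edgeR). It had 378, 301, 214 and 280 normalized counts in mutant and 153, 49.7, 252 and 57.9 in wild-type libraries, and these are part of the neuron sums. The 7 astrocyte markers summed to 18507 to 22171 and 11009 to 13085, of which *Gja1* made up the most (log2 fold change 0.80), and 5 of the other 6 had lower means in mutant libraries. None of the 7 passed the adjusted p and fold limits together. The summed ranges overlapped between the groups for microglia and macrophages (2984 to 11466 and 3353 to 13428), pericytes (24033 to 38691 and 20958 to 39258), smooth muscle (2448 to 6134 and 2866 to 6778), fibroblasts (31409 to 40664 and 27686 to 36637), neutrophils (374 to 729 and 402 to 924) and platelets (407 to 668 and 384 to 528). Within these lists, the pericyte marker *Abcc9* was called higher in mutant libraries (log2 fold change 1.78) and the fibroblast marker *Pdgfra* lower (-1.03). No other marker of them was called. Some changed by a smaller fold, among them *Kcnj8* (0.81) and *Lum* (0.67) higher and *Col3a1* (-0.51) lower. Every marker of every list had counts in both groups. In such bulk samples, fewer cells of a type and less RNA per cell cannot be told apart.

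Of the 58 genes, 54 passed the filter on low counts, and *Mmp10*, *Mmp12*, *Adam23* and *Adamts20* did not. A gene was called differentially expressed if its p in edgeR's quasi-likelihood test, adjusted after Benjamini and Hochberg over all 16887 genes tested, was under 0.05 and its absolute log2 fold change over 1. On this rule 16 of the 54 genes were called (29.6%), where 14.0% of all genes tested were. Of these, 7 rose (5.90% of all genes tested rose) and 9 fell (8.05% of all fell). The genes that rose were *Mmp3*, *Mmp14*, *Adam12*, *Adam19*, *Adamts2*, *Timp1* and *Timp3*. Those that fell were *Mmp24*, *Mmp28*, *Adam22*, *Adamts8*, *Adamts10*, *Adamts16*, *Adamts17*, *Adamtsl1* and *Adamtsl2*. Another 15 genes had an adjusted p under 0.05 with a smaller fold, 8 of them higher and 7 lower in mutant ECs, and 23 did not pass the test. Adjusted p alone thus held for 31 of 54 genes (57.4%), beside 44.4% of all genes tested (21.5% higher and 22.9% lower). The groups did not overlap for 26 of the 54 genes (48.1%), beside 42.5% of all genes tested. The mutant libraries were the higher in 14 of these (20.6% of all genes tested) and the lower in 12 (21.9% of all). The median log2 fold change of the 54 genes was 0.11 and that of all genes tested was -0.02. The number of genes that rose was 11 without mutant replicate 1 and 13 without wild type replicate 3. The number that fell was 4 without wild type replicates 1 and 3, the libraries richest in neuron markers, a choice made after the data were seen. That fit had fewer wild-type libraries, and it lost *Adam22*, *Adamts10*, *Adamts17*, *Mmp24* and *Mmp28*. Of these, *Adamts10* and *Mmp28* lay at the fold limit and were lost in 10 and 7 of the 20 alternatives.

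**Figure D1:**
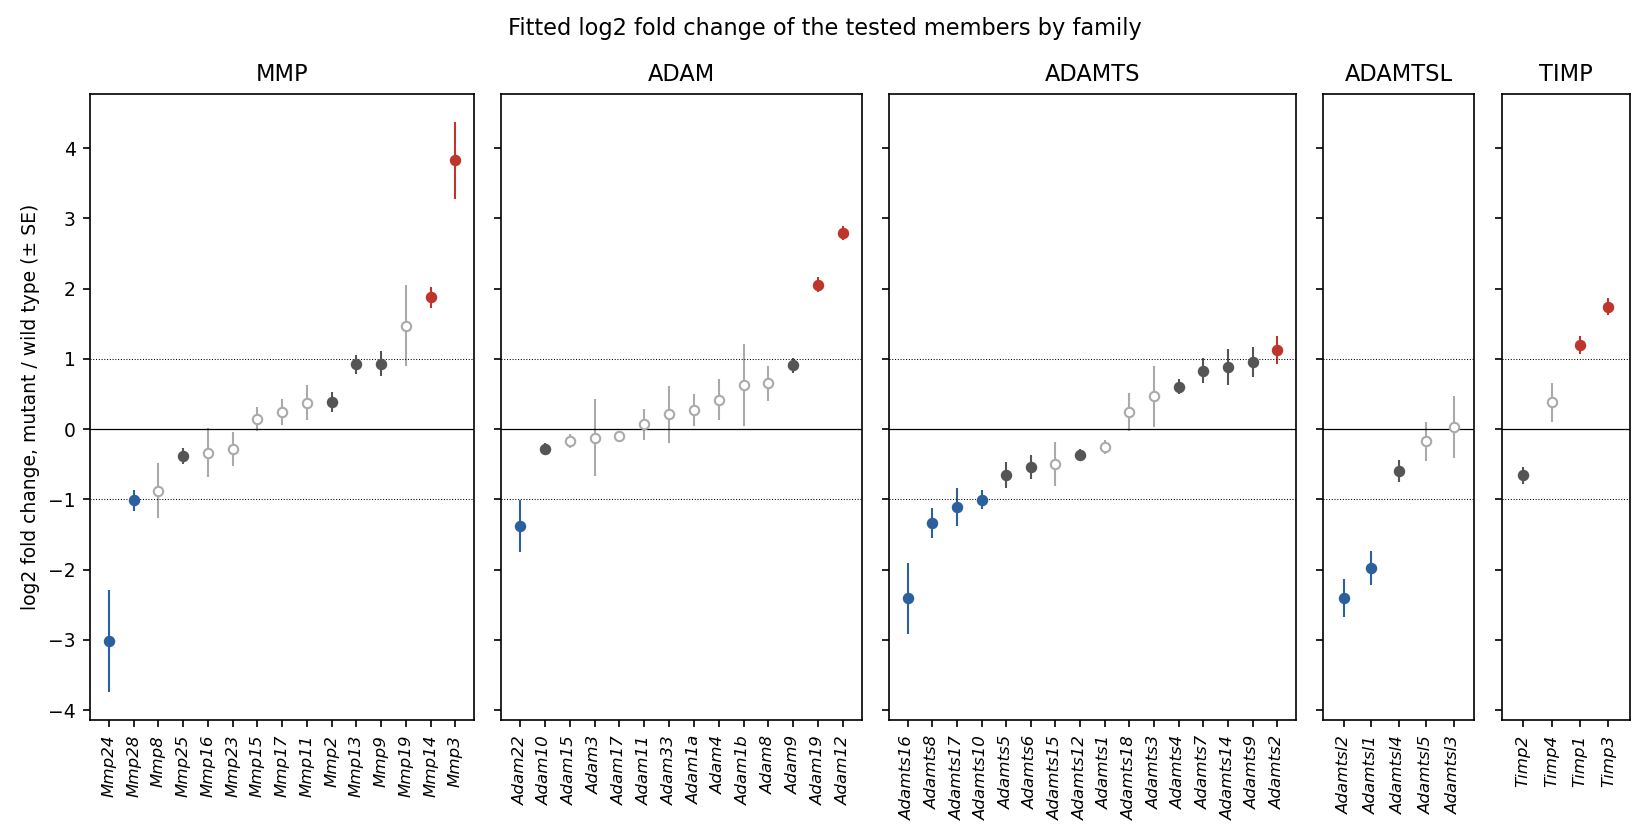
Log2 fold change between mutant and wild-type ECs (vertical axis) of the 54 genes tested, in 5 panels by family, with bars for the standard error of the fit. Red points rose and blue points fell (adjusted p under 0.05 and past the dotted lines at 1 and -1), filled grey points have an adjusted p under 0.05 and a smaller fold, and open points did not pass. ADAMTS-like genes show 2 falls and no rise, and TIMPs 2 rises and no call in the other direction.

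Among MMPs, 2 of the 15 genes tested rose, 2 fell, 4 changed by a smaller fold and 7 did not pass the test. The called share was 26.7%, beside 14.0% of all genes tested. An adjusted p under 0.05 held for 53.3% of the MMPs, beside 44.4% of all. *Mmp14* encodes the membrane-type enzyme MT1-MMP, which cuts collagen at the cell surface and activates pro-MMP2. It lies on chromosome 14 of GRCm38 from 54431612 to 54441265. Its normalized counts were 11502, 7482, 6857 and 7917 in mutant libraries 1 to 4, and 2325, 2354, 2300 and 2218 in wild-type libraries 1 to 4. Every mutant library was thus above every wild-type library, and the wild-type libraries were close to each other. This is 1.88 on the log2 scale (standard error 0.15, 3.67-fold, adjusted p = 9.57e-06, edgeR's quasi-likelihood test). On a scale of TMM-scaled RPKM, which divides by depth and by the length of the gene model (called level below), *Mmp14* went from 18.1 ± 0.459 to 66.3 ± 16.4 (SD, n = 4). It was the 12th of the 58 genes by level in wild-type and the 4th in mutant ECs.

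*Mmp15*, another membrane-type MMP, did not pass the test. Its counts were 10469, 8328, 6966 and 6365 in mutant and 8307, 8469, 6161 and 6109 in wild-type libraries, which overlap widely (log2 fold change 0.15, standard error 0.17, adjusted p = 0.507). It held the highest level of the MMPs in wild-type ECs, at 45.4 ± 8.15 (SD, n = 4). *Mmp14* took 14.0% ± 0.986 (SD, n = 4) of the summed MMP level in wild-type and 37.3% ± 4.20 (SD, n = 4) in mutant ECs, and *Mmp15* 34.8% ± 3.24 (SD, n = 4) and 28.3% ± 2.48 (SD, n = 4). The GPI-anchored *Mmp25* was slightly lower in mutant ECs, with 2026, 2243, 1919 and 1526 counts against 2580, 2802, 2309 and 2355 (log2 fold change -0.38, standard error 0.11, adjusted p = 0.0199). Without wild type replicate 1 or 2 its adjusted p was over 0.05 (0.0593 and 0.0594). *Mmp16* and *Mmp17*, the remaining membrane-type genes beside *Mmp24*, did not pass (log2 fold changes -0.34 and 0.24).

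The secreted *Mmp28*, or epilysin, fell close to the fold limit. It had 1310, 1448, 1240 and 842 counts in mutant and 2752, 2542, 2187 and 2287 in wild-type libraries. The groups did not overlap, with mutant replicate 4 lowest (log2 fold change -1.01, standard error 0.15, adjusted p = 0.000398). The adjusted p stayed under 0.05 in every alternative fit that tested against no change, but in several the fold fell under the limit, with log2 fold changes between -1.11 and -0.85. An overlap with the exons of *1700020L24Rik* on the opposite strand covers 12% of its length, and whether counting used the strand is not given in the sources used here.

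*Mmp24* encodes MT5-MMP, known mainly from neurons. Its counts were 5.05, 5.51, 12.2 and 29.5 in mutant and 139, 52.5, 227 and 25.2 in wild-type libraries, on chromosome 2 from 155775342 to 155818366. The wild-type libraries differed from each other by far more than for *Mmp14*, and wild type replicate 4 was below mutant replicate 4. For *Mmp24* the log2 fold change, -3.01, had a standard error of 0.73 (adjusted p = 0.00681, edgeR's quasi-likelihood test). The summed neuron markers were 2227, 1056, 3274 and 1130 in wild-type libraries 1 to 4 and 587, 781, 816 and 906 in mutant libraries 1 to 4. Wild type replicates 3 and 1 were thus highest in both. Without them the log2 fold change of *Mmp24* was -1.49 and the call was lost (adjusted p = 0.118). In addition 13.6% of the *Mmp24* length overlaps exons of *BC029722* on the opposite strand. The part of neuron RNA in this result was not tested.

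**Figure D2:**
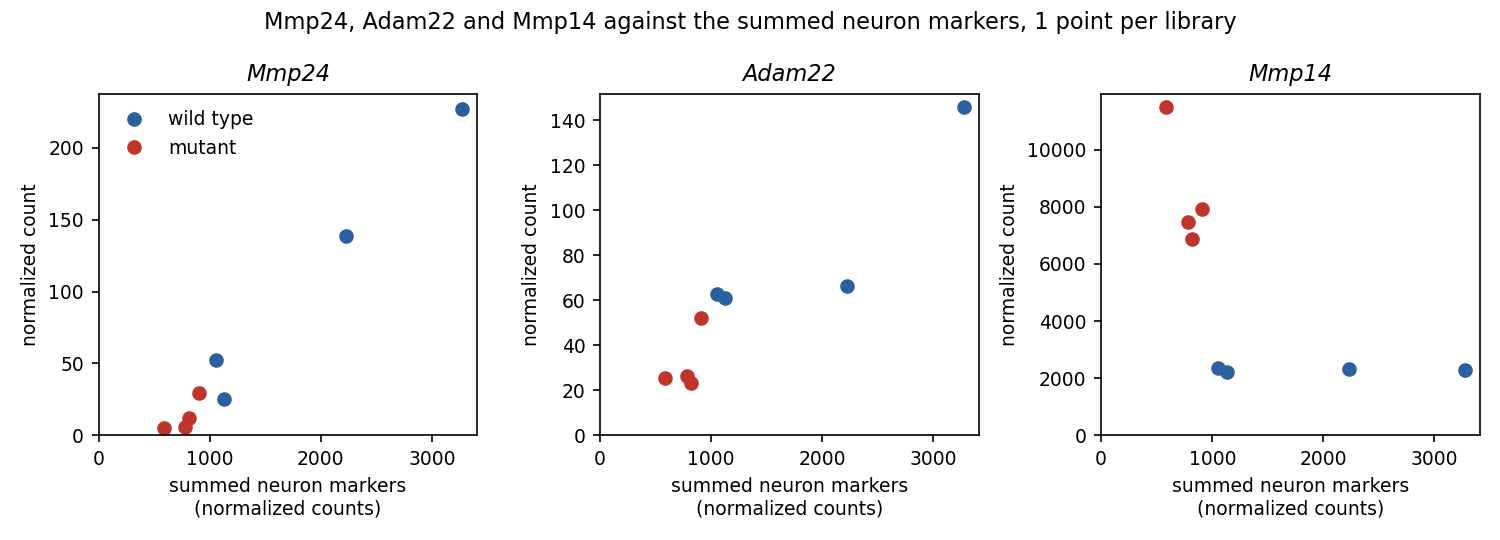
Normalized counts of *Mmp24*, *Adam22* and *Mmp14* (vertical axes) against the summed normalized counts of the 8 neuron markers (horizontal axes), 1 point per library, blue for wild type and red for mutant. The wild-type libraries with the most neuron marker counts (3274 and 2227) also have the highest *Mmp24* counts (227 and 139), while *Mmp14* lies between 2218 and 2354 in all wild-type libraries.

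The gelatinases digest type IV collagen and gelatin. *Mmp9* had 384, 407, 550 and 375 counts in mutant and 162, 251, 260 and 229 in wild-type libraries, with no overlap (log2 fold change 0.93, standard error 0.18, adjusted p = 0.00185, edgeR's quasi-likelihood test). *Mmp2* had 1601, 1168, 1480 and 1196 against 1117, 921, 872 and 1274, and its adjusted p of 0.0499 (log2 fold change 0.38) went above 0.05 in 11 of the alternative fits. By level, *Mmp2* at 10.5 ± 1.86 (SD, n = 4) stood above *Mmp9* at 2.15 ± 0.424 (SD, n = 4) in wild-type ECs. *Mmp11* and *Mmp23* did not pass the test. *Mmp19* had 97.3, 97.1, 344 and 451 counts in mutant and 41.3, 48.8, 166 and 101 in wild-type libraries, an overlap of the groups (log2 fold change 1.47, standard error 0.58, adjusted p = 0.0605). It was called with the label prefix or the replicate number as a block. An overlap with exons of *Tmem198b* on the opposite strand, which had 9214 counts, covers 23.1% of the *Mmp19* length. Mutant replicates 3 and 4 and wild type replicate 3, the libraries highest in *Mmp19*, were also highest in the summed microglia and macrophage markers (11466, 8366 and 13428).

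Of the MMP genes that lie in a cluster on chromosome 9 from 7272514 to 7699585, 5 of 10 are in the set. In chromosome order these are *Mmp13* (a collagenase), *Mmp12* (macrophage elastase), *Mmp3* and *Mmp10* (stromelysins 1 and 2) and *Mmp8* (neutrophil collagenase). *Mmp3* had 44.2, 30.9, 28.7 and 62.5 normalized counts in mutant and 0, 3.75, 2.59 and 5.26 in wild-type libraries. Even the lowest mutant library was well above the highest wild-type library, at a low level in both groups (0.780 ± 0.291 and 0.0544 ± 0.0417, SD, n = 4). This is 3.82 on the log2 scale (standard error 0.55, adjusted p = 0.000328, edgeR's quasi-likelihood test). Before scaling it had 35, 28, 26 and 72 counts in mutant and 0, 4, 3 and 5 in wild-type libraries. *Mmp3* thus passed the filter on low counts only through the mutant libraries, where it is high. Its lack of overlap and its test are therefore no separate support, and the size of its fold rests on very few wild-type counts.

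*Mmp10* had 6.31, 43.0, 76.3 and 104 normalized counts in mutant libraries, and a single count, in replicate 3, over all 4 wild-type libraries. Mutant replicate 1 was lowest, which kept the gene out of the test. Against a floor of 3 counts per wild-type library, the mutant mean was at least 20.3-fold higher, and without the filter the adjusted p was 2.81e-06 (edgeR's quasi-likelihood test). *Mmp12*, also left out by the filter, had 8.84, 16.5, 71.8 and 58.2 against 1.84, 0, 7.76 and 5.26, again without overlap (adjusted p = 0.000836 without the filter). Mutant replicates 3 and 4, the highest in *Mmp12*, were the mutant libraries highest in microglia and macrophage markers. Wild type replicate 3, the highest of all 8 in these markers, had 7.76 normalized *Mmp12* counts, beside 8.84 in mutant replicate 1. Before scaling these were 9 and 7 counts, so the lack of overlap rests on the scaling. The part of these cells in *Mmp12* was not tested. *Mmp13* had 301, 300, 402 and 317 counts against 161, 155, 183 and 200, a change below the fold limit (log2 fold change 0.92, standard error 0.14, adjusted p = 0.000517). *Mmp8* ran the other way without passing, with 10.1, 14.3, 4.42 and 10.4 counts against 12.9, 14.1, 19.8 and 26.3 (log2 fold change -0.88, adjusted p = 0.0914). *Mmp3* and *Mmp10* are close relatives, and how reads that map to more than 1 gene were counted is not given in the sources used here.

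**Figure D3:**
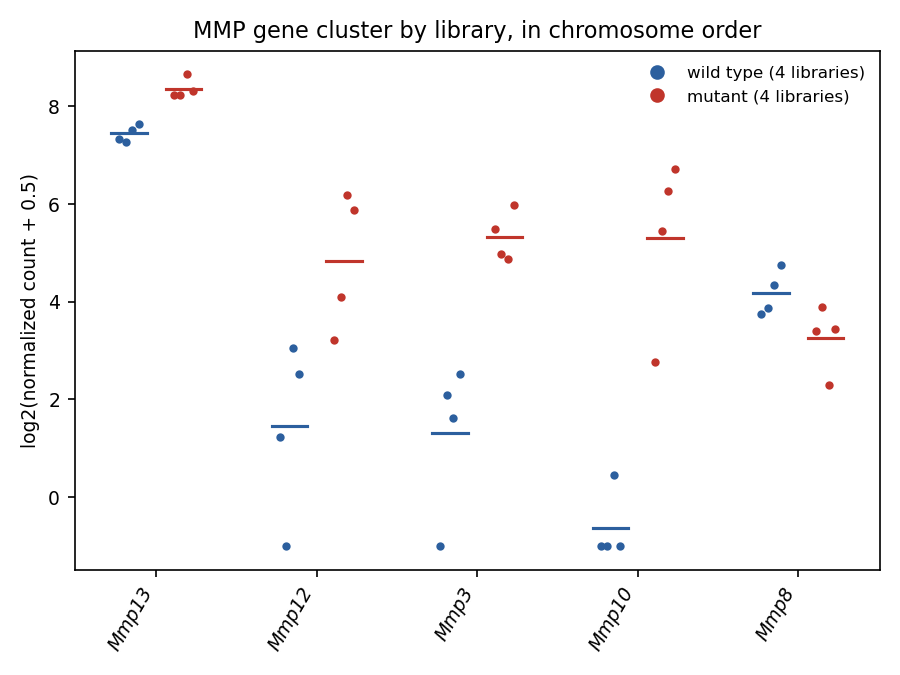
The 5 genes of the chromosome 9 MMP cluster in chromosome order, as log2 of the normalized count plus 0.5 (vertical axis), 1 point per library and a bar at the mean of the log2 values. Mutant libraries (red) lie above all wild-type libraries (blue) for *Mmp13*, *Mmp12*, *Mmp3* and *Mmp10* but not for *Mmp8*.

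ERK signalling, downstream of MAP2K1, is known to act on AP-1 (FOS and JUN) and ETS transcription factors, and stromelysin and collagenase genes are classic AP-1 targets. Promoters, as 250 bases before to 50 after the RefSeq gene start on GRCm38.p6, were at hand for 38 of the 58 genes (42 promoters). The AP-1 site TGANTCA, which reads the same on both strands, was in 6 of the 42 and in 7.81% of all 32851 promoters. The ETS site CCGGAAGT, searched on both strands, was in 0 of the 42 and in 3.89% of all promoters. A match gives only the letters and does not show that a factor binds there. The 6 genes were *Mmp3*, *Mmp10*, *Mmp12* and *Mmp13* of the cluster, *Adam19* and *Adam1b*. Among promoters at hand without these letters were those of *Mmp14*, *Timp1*, *Timp3* and *Adamts2*, which rose, and that of *Mmp8*. The sites of the cluster genes and of *Adam19* are shown with 30 bases on each side, 5′ to 3′ on the gene's plus strand and with the site in capitals to let the 4 neighbouring MMP genes and the called gene *Adam19* be compared. These 5 were chosen after their values were seen, and each had higher normalized counts in every mutant library, as other members without the site had.
Mmp13: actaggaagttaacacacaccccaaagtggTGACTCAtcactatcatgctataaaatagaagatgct
Mmp12: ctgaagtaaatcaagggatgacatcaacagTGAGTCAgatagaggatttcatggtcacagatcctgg
Mmp3: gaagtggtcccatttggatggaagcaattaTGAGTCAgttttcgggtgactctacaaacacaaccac
Mmp10: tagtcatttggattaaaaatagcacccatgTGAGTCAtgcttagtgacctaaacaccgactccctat
Adam19: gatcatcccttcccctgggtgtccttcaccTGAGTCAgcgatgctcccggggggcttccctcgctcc
These windows are chr9:7272449-7272515, chr9:7347300-7347366, chr9:7445746-7445812, chr9:7502249-7502315 and chr11:46055823-46055889. Counted from the RefSeq start of the promoter that holds it, the site began at -35 in *Mmp13*, -44 in *Mmp12*, -46 in *Mmp3*, -63 in *Mmp10* and -131 in *Adam19*. *Mmp12* and *Adam19* have more than 1 promoter at hand, and only 1 of each holds the site. For *Mmp12* it is the downstream promoter (7347124 to 7347423), not that at 7344147 to 7344446. *Mmp13* has the letter C at the middle of its site and the others shown have G. No promoter of these members was at hand for *Adam11*, *Adam12*, *Adam3*, *Adam33*, *Adam4*, *Adam9*, *Adamts4*, *Adamts5*, *Adamts6*, *Adamts7*, *Adamts8*, *Adamts10*, *Adamts15*, *Adamts16*, *Adamtsl1*, *Mmp2*, *Mmp9*, *Mmp16*, *Mmp17* and *Mmp19*.

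Among ADAMs, 2 of the 14 genes tested rose, 1 fell, 2 changed by a smaller fold and 9 did not pass. The called share was 21.4%, beside 14.0% of all genes tested. An adjusted p under 0.05 held for 35.7% of the ADAMs, a smaller share than the 44.4% of all. The rises were the meltrins *Adam12* (meltrin alpha) and *Adam19* (meltrin beta), which can release EGF family ligands and are known for their part in muscle, bone and heart development. *Adam12*, on chromosome 7 from 133883199 to 134232146, had 1657, 1595, 1405 and 1736 counts in mutant and 200, 239, 235 and 250 in wild-type libraries. Mutant ECs thus had more, by 2.79 on the log2 scale (standard error 0.10, 6.91-fold, adjusted p = 1.31e-07, edgeR's quasi-likelihood test). *Adam19*, on chromosome 11 from 46055992 to 46147343, had 2779, 2278, 1990 and 2660 against 550, 608, 605 and 569. In the same test it was higher by 2.06 on the log2 scale (standard error 0.11, 4.16-fold, adjusted p = 8.43e-07). In both genes the groups were far apart relative to the spread within them. Levels rose from 0.739 ± 0.0691 to 5.11 ± 0.451 for *Adam12* and from 2.77 ± 0.135 to 11.5 ± 1.72 for *Adam19* (SD, n = 4). *Adam9* (meltrin gamma) also changed, below the fold limit, with 4582, 3831, 3338 and 4445 counts against 1976, 2081, 2284 and 2295 (log2 fold change 0.91, standard error 0.10, adjusted p = 9.46e-05).

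Only *Adam10* and *Adam15* stood above *Adam9* by level among the ADAMs, in both groups, and they differed less. *Adam10*, the main sheddase of Notch and of VE-cadherin, had 12423, 13372, 10992 and 11046 counts in mutant and 14975, 15114, 13301 and 14885 in wild-type libraries. It was 1.22-fold lower (log2 fold change -0.28, standard error 0.09, adjusted p = 0.0202), with wild type replicate 3 inside the mutant range. Leaving out any of 4 single libraries took its adjusted p above 0.05 (0.0561 to 0.0630). *Adam17*, which releases TNF and EGF family ligands, had 3236, 3242, 3034 and 3016 against 3344, 3468, 3049 and 3508 and did not pass (log2 fold change -0.09, standard error 0.07, adjusted p = 0.279). *Adam15*, an ADAM with an RGD integrin-binding sequence in human, had 7808, 9344, 8386 and 8316 against 10394, 10472, 8090 and 9211 (log2 fold change -0.17, standard error 0.10, adjusted p = 0.171). An overlap with exons of *4731419I09Rik* on the opposite strand covers 20.6% of the *Adam15* length. Together *Adam10* and *Adam15* held 51.9% ± 0.409 and 27.1% ± 1.86 (SD, n = 4) of the summed ADAM level in wild-type, and 41.6% ± 2.09 and 23.6% ± 1.80 (SD, n = 4) in mutant ECs.

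*Adam22* encodes a neuronal ADAM without protease activity, the receptor of LGI1. Its counts were 25.3, 26.5, 23.2 and 52.1 in mutant and 66.2, 62.8, 146 and 61.0 in wild-type libraries (log2 fold change -1.38, standard error 0.37, adjusted p = 0.0119). The groups did not overlap, but mutant replicate 4 came close to the wild-type libraries, and wild type replicate 3, highest in neuron markers, stood apart. Without wild type replicate 3 alone the log2 fold change was -0.97, under the fold limit. Without wild type replicates 1 and 3 it was -0.92 (adjusted p = 0.0912), and without replicate 3 of both groups it was -0.84 (adjusted p = 0.0603). *Adam23*, a related neuronal gene left out by the filter, had 3.31 to 7.81 counts in mutant and 7.36 to 43.1 in wild-type libraries. The part of neuron RNA in both was not tested. *Adam8*, known from leukocytes, had 157, 136, 252 and 277 counts against 97.4, 147, 154 and 125 and just missed the threshold (log2 fold change 0.65, adjusted p = 0.0536). *Adam1a*, *Adam1b*, *Adam3*, *Adam4*, *Adam11* and *Adam33* did not pass, with mean normalized counts between 7.90 and 124 in each group.

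**Figure D4:**
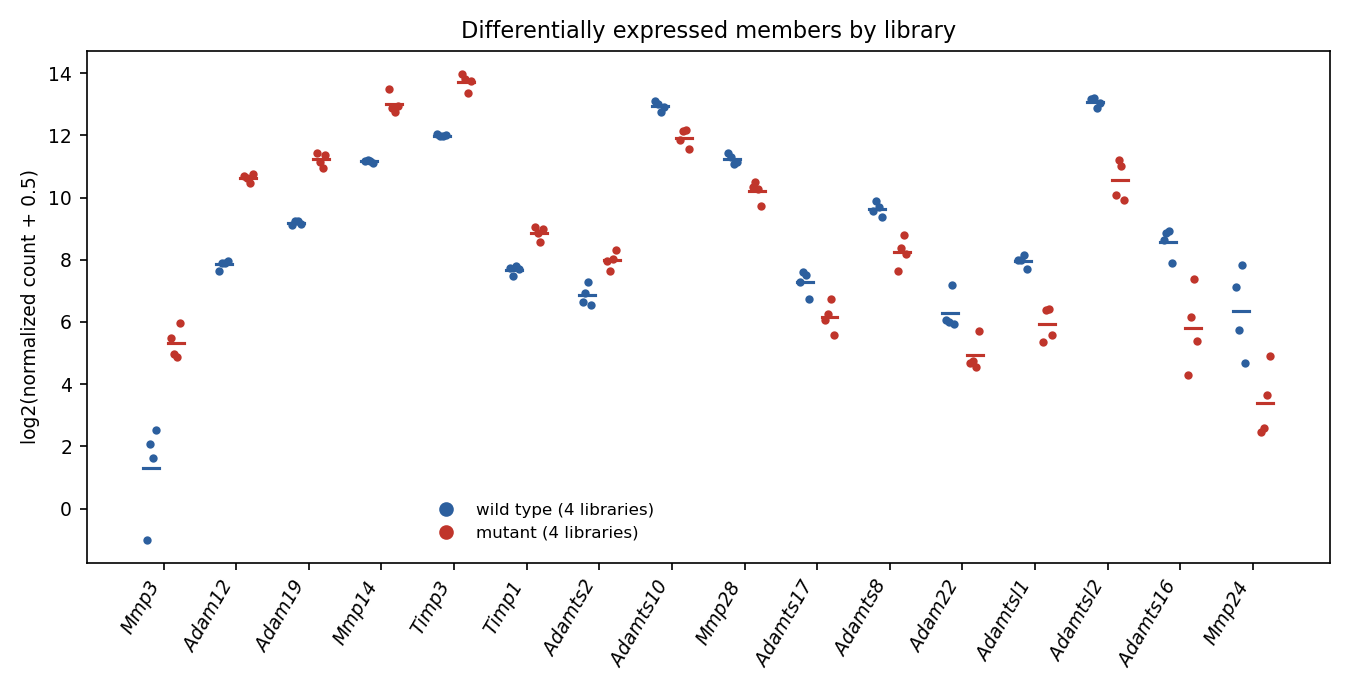
The 16 genes called differentially expressed, as log2 of the normalized count plus 0.5 (vertical axis), 1 point per library and a bar at the mean of the log2 values, ordered by log2 fold change from left to right. The groups do not overlap for 14 of the 16, and *Adamts17* and *Mmp24* overlap. Among all genes tested 42.5% do not overlap. The genes shown were called on these same libraries, so their lack of overlap largely follows from the calls.

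ADAMTS genes had the highest summed level of the 5 families and showed changes in both directions. Of the 16 tested, 1 rose, 4 fell, 4 were higher and 3 lower by a smaller fold, and 4 did not pass. The called share was 31.25%, beside 14.0% of all genes tested. An adjusted p under 0.05 held for 75% of them, beside 44.4% of all. *Adamts1*, a proteoglycanase with antiangiogenic activity, had the highest level of the 58 genes in both groups, 504 ± 17.8 in wild-type and 421 ± 54.9 in mutant ECs (SD, n = 4). Its counts were 65409, 72441, 72248 and 54082 in mutant and 80670, 77838, 82018 and 75822 in wild-type libraries. The groups did not overlap, with mutant replicate 4 lowest, yet the adjusted p was 0.0575 (log2 fold change -0.26, standard error 0.10) and between 0.0158 and 0.0473 in 5 of the alternative fits. *Adamts1* held 75.6% ± 0.795 (SD, n = 4) of the summed ADAMTS level in wild-type and 68.7% ± 3.39 (SD, n = 4) in mutant ECs.

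*Adamts4* and *Adamts9*, which cut the proteoglycans aggrecan and versican, were higher in mutant ECs. *Adamts4* had 17701, 14504, 14106 and 14927 counts against 9353, 10920, 11349 and 8759 (log2 fold change 0.60, standard error 0.11, adjusted p = 0.00121). *Adamts9* had 19415, 18051, 17751 and 22907 against 7063, 7411, 10934 and 14767 (log2 fold change 0.96, standard error 0.21, adjusted p = 0.0045). The groups were apart in both, while for *Adamts9* wild type replicate 4 approached the mutant libraries. *Adamts9* lay near the fold limit and passed it when mutant replicate 3, wild type replicate 3 or wild type replicate 4 was left out (log2 fold changes 1.01, 1.01 and 1.20). *Adamts5*, the other main aggrecanase, was lower, with 172, 180, 224 and 281 counts against 280, 286, 392 and 393 (log2 fold change -0.65, standard error 0.19, adjusted p = 0.0169, and up to 0.0533 with 1 library left out). *Adamts8*, also antiangiogenic in culture, fell from 760, 943, 825 and 661 to 197, 335, 440 and 288 (log2 fold change -1.34, standard error 0.21, adjusted p = 0.00059). *Adamts15*, its neighbour on chromosome 9, had 36.6 to 84.0 counts in mutant and 48.4 to 102 in wild-type libraries and did not pass (adjusted p = 0.226).

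*Adamts10* and *Adamts17* are genes of short-stature syndromes with lens defects and are linked to fibrillin. *Adamts10* had 3701, 4510, 4589 and 3023 counts in mutant and 8842, 8244, 6879 and 7752 in wild-type libraries. It was on the fold limit (2.00-fold lower, standard error 0.13, adjusted p = 0.000228), and its log2 fold change lay between -1.13 and -0.87 in the alternative fits, so the call was lost in some of them and the adjusted p against no change stayed under 0.05. Its level went from 49.1 ± 5.14 to 24.5 ± 4.58 (SD, n = 4). *Adamts17* had 65.7, 76.1, 107 and 47.8 against 156, 195, 180 and 106, with wild type replicate 4 level with mutant replicate 3 (log2 fold change -1.11, standard error 0.27, adjusted p = 0.00677). Without mutant replicate 4 it was under the fold limit (log2 fold change -0.92), and without wild type replicates 1 and 3 its adjusted p was 0.0600. *Adamts16* had the largest fall of the family, with 18.9, 70.6, 168 and 41.7 counts in mutant and 394, 469, 489 and 237 in wild-type libraries (log2 fold change -2.41, standard error 0.51, adjusted p = 0.0033). The mutant libraries spread from 18.9 to 168, and all were below the wild-type libraries. *Adamts6*, the closest relative of *Adamts10*, was lower with a log2 fold change of -0.54 (adjusted p = 0.0243, and up to 0.0689 with 1 library left out), and *Adamts12* with -0.37 (standard error 0.09, adjusted p = 0.00584), from 1357, 1346, 1211 and 1119 counts to 1066, 962, 969 and 912.

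*Adamts2*, *Adamts3* and *Adamts14* remove the N-propeptide of fibrillar procollagens. *Adamts2* rose from 99.2, 122, 156 and 92.6 counts to 250, 197, 259 and 320 (log2 fold change 1.13, standard error 0.20, adjusted p = 0.00131), without overlap. *Adamts14* went the same way below the limit, from 150, 180, 208 and 73.6 to 242, 307, 303 and 277 (log2 fold change 0.88, adjusted p = 0.0185), and *Adamts3* was too low to resolve (4.69 to 19.8 counts in all libraries, adjusted p = 0.417). *Adamts7*, which cuts COMP, was higher with a log2 fold change of 0.83 (adjusted p = 0.00339). *Adamts18* did not pass, and *Adamts20*, left out by the filter, had 9.19 to 56.9 counts in wild-type and 5.05 to 9.95 in mutant libraries. *Adamts13*, the protease of von Willebrand factor, is not in the normalized table, with 1, 1, 3 and 19 counts in mutant and 8, 3, 2 and 1 in wild-type libraries.

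Several ADAMTS-like proteins bind fibrillin microfibrils. *Adamtsl2*, which binds LTBP1 and is mutated in geleophysic dysplasia, had 1087, 2383, 2066 and 978 counts in mutant and 9191, 9378, 7481 and 8383 in wild-type libraries, on chromosome 2 from 27079379 to 27108981. The lowest wild-type library was more than 3 times the highest mutant library. The log2 ratio of mutant to wild type was -2.40 (standard error 0.27, 5.29-fold lower, adjusted p = 7.74e-05, edgeR's quasi-likelihood test). *Adamtsl1*, on chromosome 4, fell from 256, 256, 283 and 209 to 40.4, 82.7, 84.0 and 46.9 (log2 fold change -1.98, standard error 0.24, adjusted p = 0.000135). For *Adamtsl2* and *Adamtsl1* alike, mutant replicates 1 and 4 were the lowest libraries. *Adamtsl4* was lower below the limit, at 215, 289, 329 and 288 against 475, 477, 423 and 321 (log2 fold change -0.60, standard error 0.16, adjusted p = 0.0129). *Adamtsl3* and *Adamtsl5* did not pass (log2 fold changes 0.03 and -0.17). Of the 5 ADAMTS-like genes 40% were thus called, beside 14.0% of all genes tested. The summed level of the 5 genes was 6.69 to 13.1 in mutant and 36.3 to 44.5 in wild-type libraries. *Adamtsl2* alone held 89.1% ± 1.72 (SD, n = 4) of it in wild-type ECs.

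Of the 4 inhibitors, *Timp1* and *Timp3* rose, *Timp2* was lower by a smaller fold and *Timp4* did not pass. The called share was 50%, beside 14.0% of all genes tested. *Timp3*, which is bound to the matrix and also blocks ADAM17 and ADAMTS enzymes, had 16080, 14437, 10451 and 13699 counts in mutant and 4189, 3997, 4019 and 4115 in wild-type libraries. The wild-type libraries lay within a narrow range and the mutant libraries all far above it (log2 fold change 1.74, standard error 0.12, 3.35-fold, adjusted p = 4.62e-06, edgeR's quasi-likelihood test). *Timp3* lies on chromosome 10 from 86300372 to 86349506 inside *Syn3*, whose exons on the opposite strand cover 21.3% of its length, with 451 counts on *Syn3* over all libraries. *Timp1*, on chromosome X, had 528, 463, 380 and 503 against 210, 178, 222 and 206 (log2 fold change 1.20, standard error 0.13, adjusted p = 6.56e-05). *Timp2*, which also takes part in the activation of pro-MMP2 by MT1-MMP, had 1268, 1439, 1901 and 1423 against 2269, 2125, 2507 and 2601 (log2 fold change -0.66, standard error 0.12, adjusted p = 0.00154). *Timp4* had 45.5, 50.7, 31.0 and 48.6 against 32.2, 35.6, 45.7 and 21.0 (log2 fold change 0.38, adjusted p = 0.290). The groups did not overlap for *Timp1*, *Timp2* and *Timp3*, and did for *Timp4*.

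The order of the inhibitors changed with the genotype. In wild-type ECs *Timp2*, at a level of 20.6 ± 1.89, was the highest and *Timp3*, at 16.9 ± 0.369, next (SD, n = 4). In mutant ECs *Timp3* stood at 56.7 ± 9.80, *Timp1* at 17.8 ± 2.46 and *Timp2* at 13.1 ± 2.37 (SD, n = 4). *Timp3* took 37.3% ± 1.98 of the summed TIMP level in wild-type and 64.2% ± 4.29 in mutant ECs, and *Timp2* 45.2% ± 1.85 and 15.3% ± 4.74 (SD, n = 4). The summed TIMP level was 74.5 to 98.0 in mutant and 42.0 to 47.6 in wild-type libraries, and the summed MMP level 156 to 216 and 119 to 140. Summed levels of ADAMs (182 to 209 and 177 to 201) and of ADAMTS genes (533 to 646 and 642 to 691) overlapped between the groups.

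Over the 58 genes, 16 had a level of at least 10 in wild-type and 17 in mutant ECs. After *Adamts1*, the wild-type order was *Adam10* (100 ± 5.85), *Adamts4* (70.9 ± 8.69), *Adam15* (52.4 ± 6.19), *Adamts10* (49.1 ± 5.14) and *Mmp15* (45.4 ± 8.15), of which the last 3 lay within each other's spread (SD, n = 4). In mutant ECs it was *Adamts4* (108 ± 11.4), *Adam10* (82.2 ± 7.92), *Mmp14* (66.3 ± 16.4) and *Timp3* (56.7 ± 9.80), and the last pair lay within each other's spread (SD, n = 4). Of the 16 called genes, *Adam12*, *Adam22*, *Mmp3*, *Mmp24*, *Adamts2*, *Adamts17* and *Adamtsl1* had wild-type levels under 1.

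**Figure D5:**
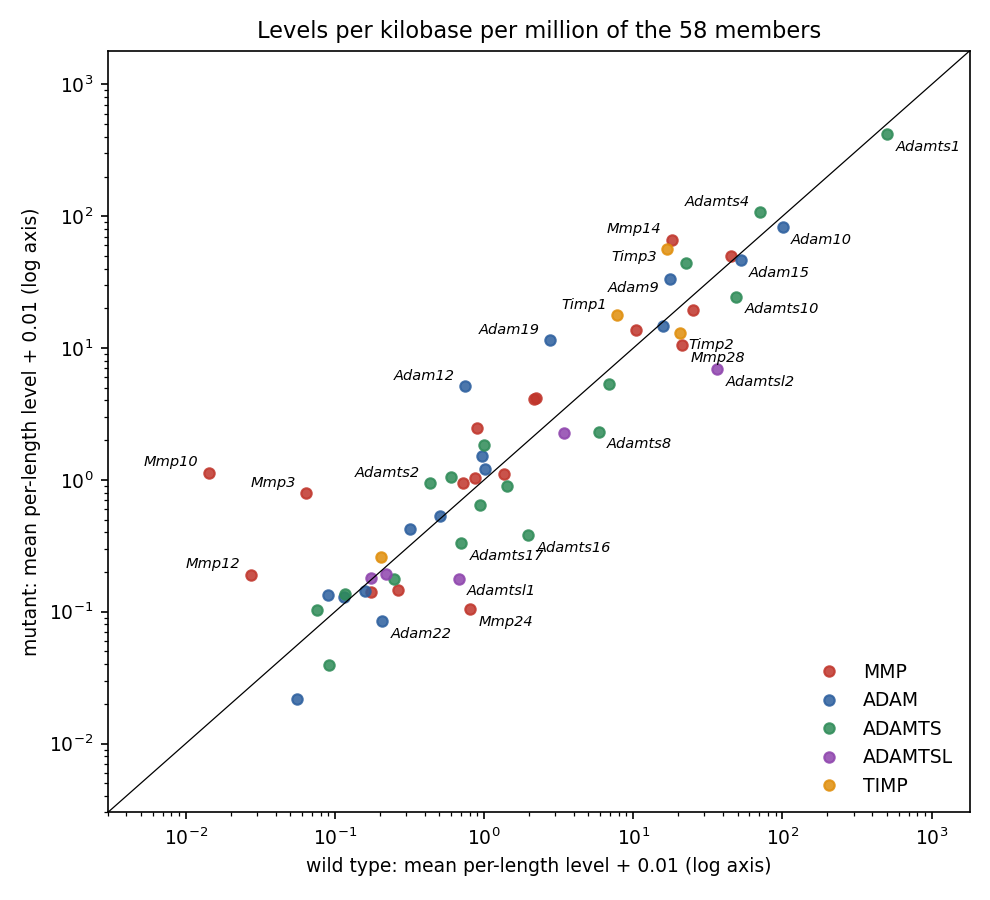
Mean level (TMM-scaled RPKM) of the 58 genes in wild-type (horizontal axis) and mutant ECs (vertical axis), both on log axes after adding 0.01, coloured by family, with the line of equal levels. *Adamts1* is highest in both groups (504 and 421), *Mmp14* and *Timp3* lie above the line, and *Adamtsl2* and *Adamts10* below it.

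The sample labels carry 3 prefixes, each with libraries of both groups, and what they stand for is not stated. The study matched wild-type to mutant pups within litters, but the labels do not say which libraries share a litter. The genes were called on these same libraries, so agreement in direction between prefixes is largely set by the calls and is no separate support. For 15 of the 16 called genes the mutant mean lay on the same side of the wild-type mean in each prefix. *Mmp24* was the exception, with log2 ratios of -4.05 for replicates 1 and 2, -4.17 for replicate 3 and 0.22 for replicate 4. *Adam22* gave -1.30, -2.62 and -0.23, and *Mmp14* 2.02, 1.58 and 1.84. A prefix with 1 library per group allows no test of its own.

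Genes listed beforehand as acting on these proteases numbered 29, of which 27 were tested. Of these 10 rose and 3 fell, so 48.1% were called beside 14.0% of all genes tested. Among inhibitors, *Reck*, a membrane-anchored inhibitor of MMP14, MMP2 and MMP9, fell from 3288, 2937, 2618 and 3532 counts to 1252, 1882, 1545 and 1406 (log2 fold change -1.02, standard error 0.13, adjusted p = 0.00018). *Tfpi2*, which blocks plasmin and some MMPs, rose from 160, 137, 218 and 227 to 922, 1054, 1020 and 1292 (log2 fold change 2.53, adjusted p = 4.98e-06). *Bsg*, or EMMPRIN, an inducer of MMPs and a barrier EC protein, fell from 128600 to 175953 counts to 32781 to 63240 (log2 fold change -1.82, adjusted p = 0.000118). Among proteases listed as activators, *Plau* (urokinase, log2 fold change 2.45), *Pcsk6* (4.01) and *Hpn* (1.35) rose, while *Pcsk5* fell (-1.27). *Prss12* (neurotrypsin, 6.31) was in the list and also rose, and it counts in the share above. It is not taken here as an activator of the proteases of the set. *Pcsk6* counts were 2273, 1496, 1229 and 1369 in mutant and 77.2, 80.6, 103 and 135 in wild-type libraries. Among partners of ADAM10 and ADAM17, *Tspan15* (1.02), *Tspan33* (1.30) and *Frmd8* (1.27) rose. A further rise was that of *Sh3pxd2b* (1.02), a podosome adaptor that binds ADAMs. In the whole list, 7 genes had an adjusted p under 0.05 with a smaller fold. Of these, *Tspan5* (-0.99, adjusted p = 2.84e-05, edgeR) and *Rhbdf1* (-0.76, adjusted p = 0.000211, edgeR) were lower. The others, *Tspan14* (0.59), *Sh3pxd2a* (0.78), *Plaur* (0.81), *Plat* (0.61) and *Furin* (0.29), were higher. *Tspan33* had 481, 174, 155 and 189 counts in mutant and 80.9, 86.3, 158 and 78.9 in wild-type libraries, so the groups overlapped and mutant replicate 1 stood highest. Without mutant replicate 1, 9 genes of the list were called.

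Of 47 substrates and matrix partners, 45 were tested, 8 rose and 5 fell (28.9% called, beside 14.0% of all genes tested), and the median log2 fold change was -0.04. The rises were *Vwf* (log2 fold change 1.15), cut by ADAMTS13, the fibrillin *Fbn2* (3.32), *Ltbp2* (1.86), *Thbs1* (2.29), the hyaluronan link protein *Hapln1* (2.17), and the surface proteins *Cdh5* (1.11), *Procr* (1.39) and *Sele* (1.84). The falls were *Eln* (-1.22), *Tgfa* (-1.11), and *Ncan* (-1.40), *Bcan* (-1.96) and *Hapln2* (-1.53), brain matrix genes. The summed neuron and oligodendrocyte lineage markers were also lower in mutant libraries, and their part in these falls was not tested. *Vcan*, the versican core protein cut by several ADAMTS enzymes, had 437, 438, 293 and 517 counts in mutant and 413, 365, 498 and 461 in wild-type libraries and did not pass (log2 fold change -0.04, standard error 0.17, adjusted p = 0.858).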

How the data were processed

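RNA from brain ECs was sequenced as poly(A) libraries, each from a single P9 pup (4 mutant, 4 wild type), and libraries were grouped by their titles. After trimming (Trimmomatic) and alignment to GRCm38 (STAR), the authors deposited whole-number counts per gene for 49315 identifiers. The counting program, annotation, strand setting and treatment of multi-mapping reads are not given in the sources used here. The authors also deposited a normalized signal for 16889 genes, counts divided by 1 DESeq2 size factor per library. Multiplied back, 100% of these values came within 0.01 of whole reads, so the table was used only to define the set and 2 alternatives.

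Symbols came from GENCODE M21 (48970 identifiers matched). Tests on counts used edgeR 4.0.16 under R 4.3.3 (TMM, filterByExpr with a minimum count of 10, glmQLFit and glmQLFTest, no covariate) over 16887 genes. Standard errors are the absolute log2 fold change divided by the root of the F statistic. DESeq2 1.42.0, other normalizations, filters, blocks, thresholds and left-out libraries were alternatives. Levels used the gene lengths of the count files. Reference promoters are RefSeq's. The planned search of member proteins for the zinc-binding site was not run.

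The genes described are those called, a set list of vascular and inhibitor genes, the 3 of highest level per family, and the 3 smallest p in each direction among smaller changes. Other members and *Vcan* were given values after these were seen. One called gene of the list of genes acting on the proteases is counted but not reported here. Members and lists were chosen with earlier results of these data known. Replicates of a group differed by more than sampling noise (chi-square per degree of freedom 7.25 to 41.6). On simulated data with 200 genes changed by a log2 fold change of 2, 199 were called, and 4 unchanged genes were called. The changed genes were drawn only from those above a mean count that *Mmp3* does not reach. Recovery of genes with so few counts, or of smaller changes, was thus not tested. At these depths the spread between pups limits precision, except for genes with few counts. Floors cover counting error only.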

Additional observations from a re-analysis of the deposited data

Results flagged for a closer look

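In 4 of the 64 groups of 4 libraries checked over the genes described, 1 library lay far from the other 3, where chance alone gives about 1 in 20. These were *Adam22* in mutant replicate 4 (52.1 normalized counts) and in wild type replicate 3 (146), *Adam10* in wild type replicate 3 (13301), the lowest of its group, and *Mmp13* in mutant replicate 3 (402), the highest of its group. Wild type replicate 3 was also the library with the highest summed neuron markers (3274) and microglia and macrophage markers (13428) of all 8. Mutant replicate 4 had the highest summed neuron markers of the mutant libraries (906), and mutant replicate 3 the highest microglia and macrophage markers of them (11466). The part of these cells in the values was not tested.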

How the results depend on the processing

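None of the 32 genes of the set followed through the alternatives changed direction. Over 607 combinations of a gene and an alternative, 575 kept their side of the adjusted p threshold, 25 lost it and 7 gained it. Over 20 alternatives, calls changed most often at the fold limit (*Adamts10* lost in 10, *Mmp28* in 7) and at the filter on low counts (*Mmp10* and *Mmp12* gained in 9 each, *Adam23* in 8), and *Mmp19* was gained in 7. Testing against a log2 fold change of 1 (glmTreat) left 7 genes of the set, 2 of them lower, 736 of all genes, 5 partners and 6 substrates. Adjusted p alone gave 31 genes of the set and 7504 of all. With 1 library left out at a time, the set gave 15 to 21 calls, 8 to 13 higher and 7 to 10 lower, all genes 2168 to 2662, partners 9 to 14, substrates 12 to 15, and the log2 fold change of *Map2k1* 3.06 to 3.25. Without replicate 3 of both groups, the richest in microglia and macrophage markers, 11 genes of the set were higher, and without wild type replicates 1 and 3, 4 were lower. Both were chosen after seeing the data. Among the top 80% of genes by mean normalized count, which leave out *Mmp3*, 14 genes of the set were called, without *Adamts10*. The causes were not tested. Same-numbered libraries correlated in their deviations from the group means by 0.20, 0.21, 0.29 and 0.02, and not each correlated best with its own number, so they were not taken as pairs. With the replicate number as a block 18 genes of the set were called, and 2431 of all genes. With the label prefix as a block these were 18 and 2456. Both blocks added *Adamts9* and *Mmp19*. Depth limits genes with few counts, such as *Adam1b* (3 to 18 per library), *Adamts3* (5 to 23) and *Mmp8* (4 to 25).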

Other observations

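Among cluster genes that are not in the normalized table, *Mmp1a* had 1, 1, 2 and 13 counts in the mutant libraries and 0 in each wild-type library. *Mmp1b* had 7 counts over the mutant libraries and 0 over the wild-type libraries, and *Mmp27* had 5 and 0. *Mmp7* had 1 count and *Mmp20* none in the 8 libraries. Within the cluster, counts of *Mmp1a* were highest in mutant replicate 4, the library that was also highest in *Mmp3* (62.5 normalized counts) and *Mmp10* (104). Of the testis-type ADAMs not in the table, *Adam5* had the most counts, 17 over the mutant and 33 over the wild-type libraries, and 8 ADAM genes had no count.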
